A study of Homo sapiens with 27 samples.

Results

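The 49 genes described here encode the machinery that copies DNA in S phase: the factors that license origins, the MCM2-7 helicase and its activators, the sliding clamp and its loader, the replicative polymerases and primase, the single-strand binding complex RPA, the enzymes that supply deoxynucleotides and the factors that copy chromatin and DNA methylation. They were chosen by symbol from a list of replication genes. All 49 of 49 listed genes were among the 13523 genes measured, and all 49 were among the 13052 genes tested, so no member was lost to the filter on low values.

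Origins are licensed in G1, when the origin recognition complex with CDC6 and CDT1 loads the MCM2-7 helicase onto DNA. At the start of S phase CDC45, MCM10 and the GINS complex join and activate the helicase, and primase, the polymerases and PCNA then extend both strands. Many of these genes are well-known targets of the E2F transcription factors, whose activity is released in late G1 when growth signals reach the cell. The kinase mTOR, which reads amino acid supply, is one of the regulators of that entry, and mRNAs of the replication machinery are therefore commonly used as a readout of the fraction of cells in or near S phase.

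RNA came from 501mel cells, an established human melanoma line with high MITF. The labels give DMEM with 10% fetal bovine serum and 10% CO2 as its culture conditions, whereas the study's methods give RPMI medium for this line. Unedited (WT) cells were untreated, were starved for 12 h in HBSS, which is a balanced salt solution lacking amino acids, or received the mTOR inhibitor Torin at 250 nM for 12 h. Cells with a Cas9 knockout of TFE3 (TFE3 KO), of TFEB (TFEB KO) or of both (DKO) received the same Torin treatment or served as 12 h controls. TFE3 and TFEB are transcription factors of the MITF family that act on lysosome and nutrient genes. Each knockout is 1 clone per the study's methods, so clone and genotype cannot be told apart in any comparison between genotypes, and the libraries of a group are replicates of that clone. The labels give 9 groups of 3 libraries. The WT HBSS replicate 3 and WT Torin replicate 1 columns were identical in all 13523 genes and were left out of both groups, so those 2 groups have n = 2 and the other 7 have n = 3. The identical column held 12917 genes with a read. The remaining WT HBSS libraries held 12895 and 12901, and the remaining WT Torin libraries 13188 and 13181. Which sample the column came from was not tested.

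Most of these promoters hold a short word recognised by E2F factors, and promoters are shown for the members with the 4 lowest log2 fold changes under Torin in WT cells (RRM2, UHRF1, CDC6 and CLSPN) and for the 2 members nearest to 0 (POLA1 and POLD1). Each is the RefSeq sequence on GRCh38.p14 from 250 bases before to 50 after the annotated start, 5′ to 3′ on the gene's strand, with matches to the E2F word in capitals. The word searched was TTCCCGC or its variants with other central bases, namely TTCGCGC and also TTGCCGC and finally TTGGCGC, on either strand. RRM2 (chr2:10122489-10122788, plus strand) encodes the regulated subunit of ribonucleotide reductase, UHRF1 (chr19:4909251-4909550, plus strand) guides maintenance DNA methylation, and CDC6 (chr17:40287629-40287928, plus strand) loads the helicase. CLSPN (chr1:35769929-35770228, minus strand) encodes the checkpoint adaptor claspin, POLA1 (chrX:24693668-24693967, plus strand) the catalytic subunit of polymerase alpha and POLD1 (chr19:50384073-50384372, plus strand) that of polymerase delta.
RRM2: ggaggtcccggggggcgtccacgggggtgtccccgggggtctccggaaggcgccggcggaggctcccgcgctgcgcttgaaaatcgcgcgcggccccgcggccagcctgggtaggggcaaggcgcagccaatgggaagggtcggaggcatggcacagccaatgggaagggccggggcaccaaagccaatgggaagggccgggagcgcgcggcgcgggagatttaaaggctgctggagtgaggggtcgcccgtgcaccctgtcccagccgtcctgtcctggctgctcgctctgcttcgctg
UHRF1: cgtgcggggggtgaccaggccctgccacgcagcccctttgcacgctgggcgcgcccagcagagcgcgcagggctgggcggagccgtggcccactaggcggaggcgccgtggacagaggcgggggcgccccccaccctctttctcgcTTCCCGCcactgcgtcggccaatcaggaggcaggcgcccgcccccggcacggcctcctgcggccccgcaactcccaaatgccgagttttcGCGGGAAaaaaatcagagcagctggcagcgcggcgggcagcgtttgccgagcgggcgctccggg
CDC6: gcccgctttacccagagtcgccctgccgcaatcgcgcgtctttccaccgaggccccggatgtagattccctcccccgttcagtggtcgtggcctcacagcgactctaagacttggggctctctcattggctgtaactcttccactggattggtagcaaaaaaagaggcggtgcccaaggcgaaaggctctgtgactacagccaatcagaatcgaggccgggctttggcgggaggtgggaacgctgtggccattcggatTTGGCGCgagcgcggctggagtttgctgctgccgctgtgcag
CLSPN: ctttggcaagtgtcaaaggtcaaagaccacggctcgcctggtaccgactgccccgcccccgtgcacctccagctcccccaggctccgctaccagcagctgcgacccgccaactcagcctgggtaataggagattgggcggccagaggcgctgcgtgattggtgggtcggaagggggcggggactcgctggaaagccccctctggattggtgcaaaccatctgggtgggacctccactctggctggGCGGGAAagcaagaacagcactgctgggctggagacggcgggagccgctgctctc
POLA1: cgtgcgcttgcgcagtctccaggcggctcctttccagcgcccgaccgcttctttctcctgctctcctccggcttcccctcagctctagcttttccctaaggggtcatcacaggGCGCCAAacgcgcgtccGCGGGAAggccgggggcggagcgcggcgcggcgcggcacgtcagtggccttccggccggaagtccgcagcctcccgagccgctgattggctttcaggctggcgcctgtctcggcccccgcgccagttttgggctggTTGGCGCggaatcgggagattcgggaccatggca
POLD1: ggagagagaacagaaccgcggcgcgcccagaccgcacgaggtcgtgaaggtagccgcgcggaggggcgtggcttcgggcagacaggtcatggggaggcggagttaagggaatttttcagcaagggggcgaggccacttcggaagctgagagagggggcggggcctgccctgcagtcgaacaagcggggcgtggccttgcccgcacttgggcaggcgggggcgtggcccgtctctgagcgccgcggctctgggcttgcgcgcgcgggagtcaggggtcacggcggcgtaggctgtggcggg
UHRF1 held 2 matches, which began at -104 and -14, and CDC6 held 1 at 9. CLSPN held 1 at -5, POLA1 held 3 at -137, -120 and 17, and RRM2 and POLD1 held 0. In these positions the start site was counted as 1 and no base was counted as 0.

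A promoter sequence was matched for 42 of the 49 members. Of these 42, 30 (71.4%) held at least 1 E2F word, against 20.6% of the 9938 promoters of genes in the measured set and 13.1% of all 27305 promoters of this length. At least 2 matches were present in 31.0% of member promoters, 3.11% of those of measured genes and 1.81% of all. The E-box CACGTG, the word bound by the MITF family, was present in 14.3% of member promoters and 10.3% of those of measured genes, and CCAAT in 57.1% and 36.9%. The median log2 fold change under Torin in WT cells was -1.04 over the 30 members with a match (range -2.18 to -0.19) and -1.21 over the 12 without (range -2.37 to -0.21), and POLA1, with 3 matches, was the member nearest to 0.

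Libraries held 4147050 to 6526392 reads in the measured genes. A count of 0 allows up to 3 reads, equal to 0.460 to 0.711 in normalised expression, and every member was above that level on average in every group. The targeted genes were checked first. TFE3 had a mean normalised expression of 24.0 in WT control, 27.0 in TFEB KO, 6.30 in TFE3 KO and 6.35 in DKO control libraries. TFEB had control means of 3.25 in WT, 1.11 in TFEB KO, 0.681 in TFE3 KO and 0.661 in DKO, so it was also low in the clone in which it was not targeted, and it rose in WT HBSS to 29.2 ± 1.65 (SD, n = 2; log2 fold change 2.85, adjusted p = 4.4e-09). In the chi-square per degree of freedom of reads over genes, WT control replicate 1 stood apart from replicates 2 and 3 (7.08 and 6.12, against 2.39 between those), as did DKO control replicate 3 (8.40 and 5.33, against 3.09); the 19 pairs without these 2 libraries lay between 1.87 and 5.27. Without WT control replicate 1 the counts of members passed were 44 in place of 45 for HBSS, 45 as before for Torin in WT, 3, 9 and 3 in place of 4, 13 and 2 for TFE3 KO, TFEB KO and DKO without treatment, and 6, 3 and 1 in place of 7, 5 and 3 for the differences of their Torin responses from WT. Without DKO control replicate 3 they were 45 in place of 47 for Torin in DKO, 3 in place of 2 for DKO without treatment and 3 as before for its difference from WT. All 7 melanocyte markers were present, with a summed level of 5123 to 14450 across libraries. Of the 5 fibroblast markers 2 were measured, with a summed level of 0.208 to 6.62, of the 5 leukocyte markers 1 was measured (CD68, 29.5 to 74.2), and none of the 4 keratinocyte markers was measured.

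Torin lowered nearly the whole replication machinery in unedited cells. The summed normalised expression of the 49 genes was 5861 ± 76.0 (SD, n = 3) in WT control and 2875 ± 30.1 (SD, n = 2) in WT Torin, 49.1% of control. In bulk libraries such as these, fewer cells in S phase and less RNA per cell cannot be told apart. Of the 49 genes, 45 were lower at an adjusted p under 0.05 in limma, against 23.4% of all genes tested, and 0 were higher, against 20.5%. By at least 2-fold 29 of 49 were lower, against 3.999% of all genes. The median log2 fold change was -1.06 over the members and 0.00 over all genes tested.

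**Figure D1:**
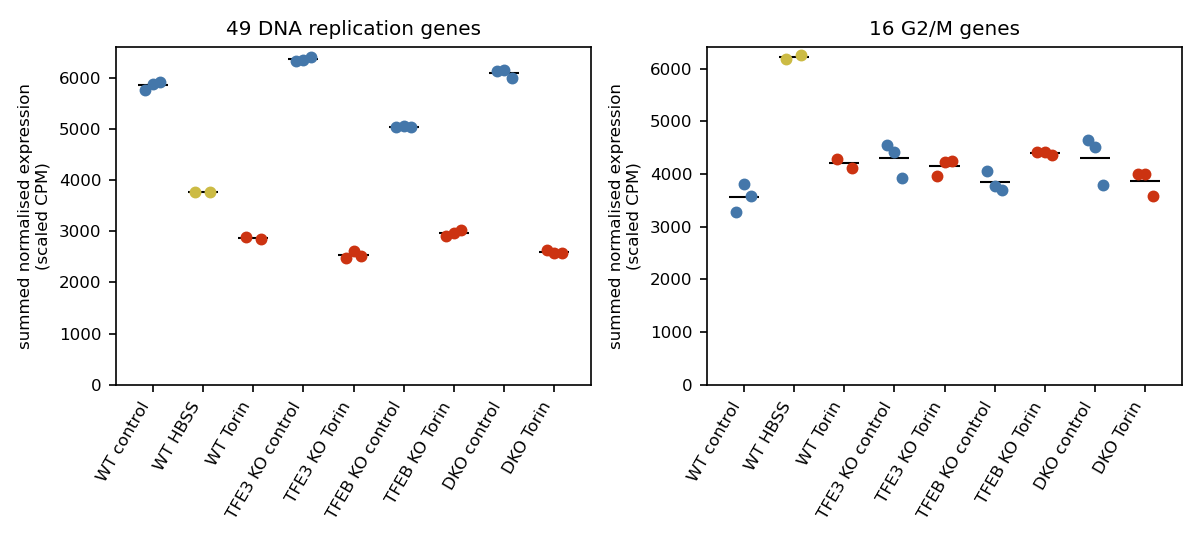
Summed normalised expression (scaled CPM, linear axes from 0) of the 49 DNA replication genes (left) and of 16 genes of the G2 and M phases (right); each point is 1 library, the bar is the group mean, and blue, yellow and red stand for control, HBSS and Torin. The replication sum lay between 5036 and 6413 in the control libraries and between 2475 and 3035 in the Torin libraries, whereas the G2/M sum was highest in the 2 HBSS libraries (6173 and 6261).

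Among licensing genes, CDC6 fell the most under Torin. It was 123, 122 and 121 in the WT control libraries and 29.5 and 23.7 with Torin, 0.224 of control (log2 fold change -2.16 ± 0.124, SE, adjusted p = 2.7e-19). The Torin libraries were far below all controls. GMNN, which encodes the licensing inhibitor geminin, fell by 1.63 on the log2 scale (adjusted p = 3.3e-15), ORC6, an origin recognition subunit, by 1.13 and ORC1 by 1.05. The ORC6 call was lost with the identical column kept as WT Torin replicate 1 (-0.54 on the log2 scale, adjusted p = 0.176). CDT1 moved the least of the 5: it was 72.1, 75.6 and 82.4 in control and 59.3 and 62.1 with Torin (log2 fold change -0.33 ± 0.115, adjusted p = 0.017). That call was lost without WT control replicate 3, WT Torin replicate 2 or WT Torin replicate 3 (-0.28, -0.30 and -0.36 on the log2 scale).

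All 6 subunits of the MCM2-7 helicase fell. MCM5 was 174, 172 and 175 in control and 78 and 74.9 with Torin (0.443 of control, adjusted p = 3.4e-15), and MCM2, the least affected subunit, was 96.3, 84.5 and 90 and 56.5 and 66.8 (0.685 of control, adjusted p = 0.00017). The 2 conditions did not overlap for either gene, as was the case for 45 of the 49 members and 7857 of the 13052 genes tested. The factors that turn the loaded helicase into an active fork fell further, and all 6 of 6 passed the 2-fold limit. MCM10, which is needed to start unwinding, was 85.8, 89.7 and 88 in control and 19.2 and 25.8 with Torin (0.262 of control, adjusted p = 1.4e-15). GINS3, the least affected of this group, was 30.6, 33.6 and 35.7 and 12.9 and 16.6 (0.457 of control). The median log2 fold change was -1.51 over these 6 genes and -1.03 over the 6 MCM2-7 subunits.

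At the fork, the clamp PCNA was 170, 155 and 166 in control and 47.8 and 43.4 with Torin, 0.283 of control (adjusted p = 6.1e-15). Of its 5-subunit loader, RFC2, RFC3 and RFC5 fell by at least 2-fold, RFC4 fell by 0.47 on the log2 scale, and RFC1 was 160, 181 and 172 in control and 150 and 142 with Torin (log2 fold change -0.23 ± 0.0892, adjusted p = 0.034). The RFC1 call was not kept in 9 of the alternatives tried, among them edgeR on recovered reads (-0.17, adjusted p = 0.130) and leaving out WT control replicate 2 or 3 or either Torin library (-0.19, -0.22, -0.26 and -0.19). RFC1, the largest subunit of the loader, was the member of this group with the smallest change in each of the 4 genotypes.

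The polymerases were divided in WT cells. POLA2, the regulatory subunit of polymerase alpha, was 40.3, 33.8 and 39 in control and 11.5 and 11.4 with Torin (0.322 of control, adjusted p = 7.4e-11), and POLE2 and POLD3, accessory subunits of polymerases epsilon and delta, also fell by at least 2-fold. The 3 catalytic subunits did not pass the test in WT. POLA1 was 74.9, 103 and 83.1 in control and 79.2 and 71.6 with Torin (adjusted p = 0.21), POLD1 was 9.86, 16.6 and 15.6 and 10.8 and 12.8 (adjusted p = 0.43), and POLE was 37.8, 49.7 and 42.5 and 33.5 and 39.3 (adjusted p = 0.14). For these 3 genes the WT control and WT Torin libraries overlapped. In TFE3 KO and in DKO cells, however, 8 of the 9 polymerase and primase genes passed as lower with Torin, all but POLD1. The POLE call in DKO was lost without DKO control replicate 1 or 2 (-0.28 and -0.29). In TFEB KO cells 6 of the 9 passed, POLA1 among them. All 3 RPA subunits fell, RPA2 from 101, 88.7 and 85.3 to 52.7 and 43.4 (adjusted p = 1.7e-09) and RPA1 from 116, 102 and 108 to 77.8 and 77.7 (adjusted p = 6.0e-05). FEN1, the flap nuclease of Okazaki fragments, fell from 717, 634 and 663 to 236 and 195 (adjusted p = 2.4e-22). LIG1, the ligase that seals the same fragments, was 43.9, 60.4 and 61.1 in control and 44.8 and 44.1 with Torin. It did not pass in WT (adjusted p = 0.082), but without WT control replicate 1 it did (-0.44 on the log2 scale, adjusted p = 0.00952). LIG1 passed as lower in TFE3 KO (-0.55), TFEB KO (-0.33) and DKO (-0.38). Its TFEB KO call was lost in edgeR on recovered reads (adjusted p = 0.067) and its DKO call without DKO Torin replicate 2 (-0.25).

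Of the genes for nucleotide supply, RRM2 had the lowest log2 fold change of all 49 members. It was 245, 229 and 252 in control and 47.6 and 44.6 with Torin, 0.194 of control (log2 fold change -2.37 ± 0.0929, SE, adjusted p = 1.5e-25). Its promoter, printed above, was 1 of the 12 without an E2F word. Its partner RRM1, the large reductase subunit, fell by 0.75, thymidine kinase TK1 by 1.30 and thymidylate synthase TYMS by 1.25 on the log2 scale. DUT, which removes dUTP, changed least, from 304, 266 and 275 to 187 and 190 (adjusted p = 5.2e-07). Among the genes that copy chromatin and methylation, UHRF1 fell from 18.2, 19.4 and 19.9 to 2.58 and 4.5, 0.220 of control (adjusted p = 1.7e-09), on 11 and 19 reads in the Torin libraries. DNMT1, the maintenance methyltransferase, fell from 407, 546 and 499 to 319 and 315 (adjusted p = 9.8e-06), and the chromatin assembly subunits CHAF1A and CHAF1B by 1.53 and 1.02. CLSPN fell from 172, 241 and 231 to 50.9 and 48.4 (adjusted p = 9.8e-20), and the fork protection factor TIPIN, which acts with TIMELESS, from 32, 32.5 and 32.6 to 18.5 and 15.4 (adjusted p = 4.6e-05). FAM111B, a putative protease, was 19.4, 20.6 and 16.8 in control and 6.09 and 2.61 with Torin (0.255 of control, adjusted p = 3.3e-08).

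**Figure D2:**
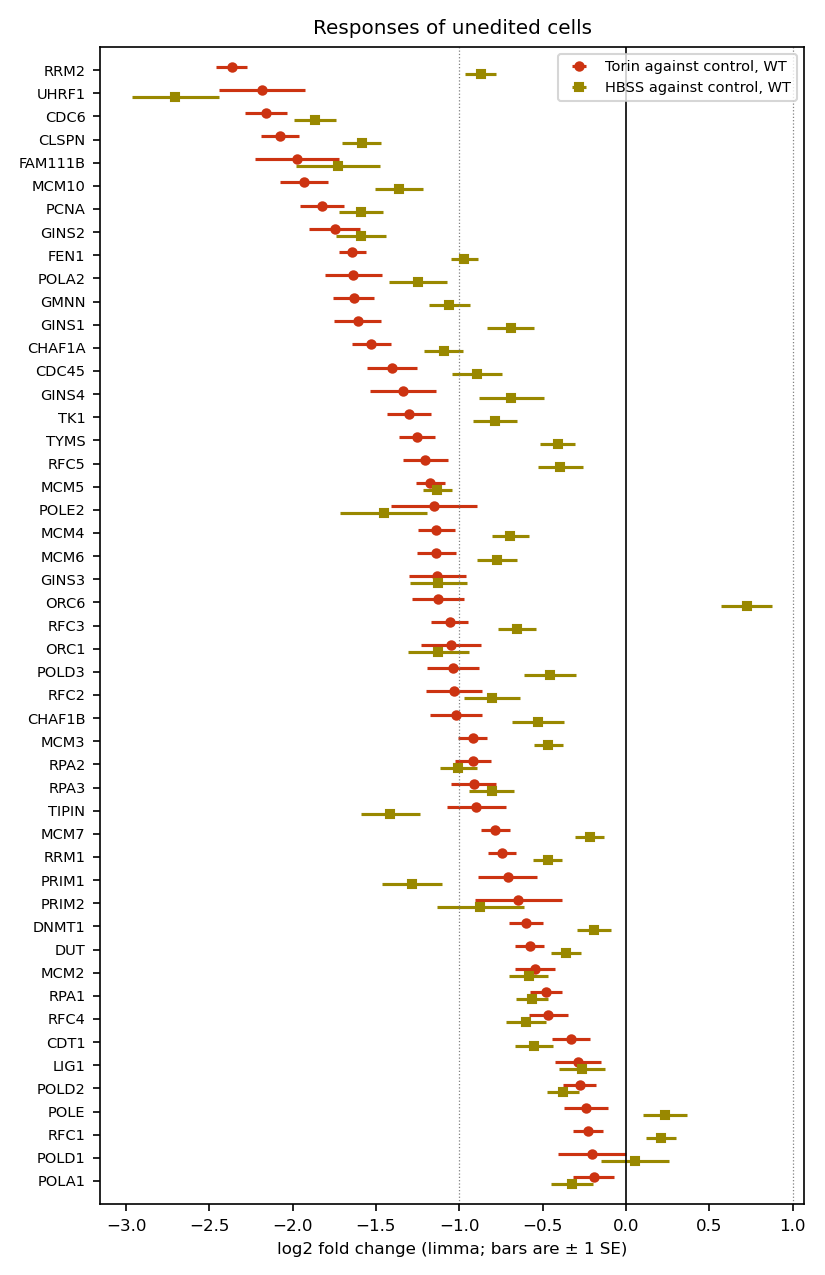
Log2 fold change against WT control (limma on log2(value + 1), bars ± 1 SE) of each of the 49 genes for Torin (red circles) and HBSS (olive squares) in WT cells, ordered by the Torin value; dotted lines mark a 2-fold change. Torin values ran from -2.37 (RRM2) to -0.19 (POLA1), and ORC6 was the gene whose 2 symbols lay farthest apart.

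Starvation in HBSS lowered most of the same list, in a comparison that shares its WT control libraries with the Torin comparison. The study's methods do not say whether the HBSS held serum. Loss of amino acids and loss of other parts of the medium therefore cannot be told apart. The summed level was 3771 ± 10.5 (SD, n = 2), 64.3% of WT control. Of the 49 members 43 fell, against 24.7% of all genes tested, 2 rose, against 23.6% of all genes, and 4 did not pass. At the 2-fold limit 17 fell, against 6.20% of all genes. The median log2 fold change was -0.77 over the members and -0.03 over all genes.

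UHRF1 fell the most, from 18.2, 19.4 and 19.9 in control to 3.68 and 1.05 in HBSS (0.153 of control, adjusted p = 2.8e-12), on 16 and 5 reads in the HBSS libraries. CDC6 fell from 123, 122 and 121 to 33.1 and 32.2 (adjusted p = 2.0e-17), and PCNA from 170, 155 and 166 to 49.9 and 57.6 (adjusted p = 1.8e-13). In contrast, ORC6 rose. It was 59.7, 58.2 and 50.2 in control and 92.3 and 93.6 in HBSS (log2 fold change 0.72 ± 0.153, SE, adjusted p = 0.00011), so that HBSS libraries lay above and Torin libraries below every control. With the identical column kept as WT Torin replicate 1 only, ORC6 in HBSS had the same log2 fold change with an adjusted p of 0.0907, and kept in both groups 0.69 with an adjusted p of 0.0574. RFC1 was the other member that rose, from 160, 181 and 172 to 195 and 200 (log2 fold change 0.21 ± 0.0892, adjusted p = 0.048); this call was lost without WT control replicate 1 or 3 (0.16 and 0.22) or WT HBSS replicate 1 or 2 (0.23 and 0.19). Of the 45 calls in HBSS 38 were kept whichever single library was left out. POLD1, POLE, LIG1 and DNMT1 did not pass, with log2 fold changes of 0.05, 0.24, -0.26 and -0.19.

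Compared directly, HBSS left 24 members higher than Torin did, against 26.1% of all genes tested, and 2 lower, against 23.1% of all genes; the median difference was 0.29 on the log2 scale over the members and -0.01 over all genes. ORC6 was 92.3 and 93.6 in HBSS and 29.3 and 21.3 in Torin (log2 difference 1.85 ± 0.168, SE, adjusted p = 1.2e-12), and RRM2 was 130 and 133 and 47.6 and 44.6 (2.82 times the Torin level, adjusted p = 7.5e-17). These were the 2 members that differed by at least 2-fold. GINS1, TYMS and RFC5 were also higher in HBSS, by 0.92, 0.84 and 0.81 on the log2 scale. PRIM1, the catalytic primase subunit, and TIPIN were lower in HBSS than in Torin. The TIPIN call (-0.52) was lost without WT HBSS replicate 2 (-0.25) or WT Torin replicate 2 (-0.39). PRIM1 was 13.6 and 12.3 in HBSS and 25.3 and 15.4 in Torin (log2 difference -0.57 ± 0.195, adjusted p = 0.013); this call was lost without WT HBSS replicate 2 (-0.51) or WT Torin replicate 2 (-0.23). The count of 26 members that differed fell to 7 with the identical column kept as WT Torin replicate 1 and to 9 with it kept in both groups, and was 26 with it kept as WT HBSS replicate 3.

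The fall under Torin was present in all 4 genotypes, which share no libraries in this comparison. In TFE3 KO cells 47 members fell (26.0% of all genes tested were lower), 34 of them by at least 2-fold (4.69% of all genes). In TFEB KO cells 43 fell (21.0% of all genes), 14 by at least 2-fold (1.65% of all genes). In DKO cells 47 fell (26.2% of all genes), 31 by at least 2-fold (4.29% of all genes). No member rose in any of the 4 genotypes, against 20.5% of all genes in WT, 25.4% in TFE3 KO, 17.4% in TFEB KO and 25.4% in DKO. The same 41 members passed as lower in all 4, and 14 were at least 2-fold lower in all 4. The matching counts over all genes tested were not made. Their shares cannot exceed those of TFEB KO, 21.0% and 1.65%. POLD1 passed in none; its log2 fold changes were -0.21 in WT, -0.17 in TFE3 KO, -0.15 in TFEB KO and -0.40 in DKO, with adjusted p of 0.064 in the last.

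The depth of the fall differed between genotypes. The summed level with Torin was 49.1% of that genotype's own control in WT, 39.8% in TFE3 KO, 58.9% in TFEB KO and 42.5% in DKO, and the median log2 fold change over the members was -1.06, -1.30, -0.76 and -1.37 in the same order, with medians over all genes of 0.00, 0.02, 0.00 and 0.02. The sums with Torin were 2533 ± 72.8 in TFE3 KO, 2974 ± 60.5 in TFEB KO and 2594 ± 28.9 in DKO (SD, n = 3 each). The control sums were spread more widely, at 6370 ± 37.4, 5045 ± 9.79 and 6100 ± 92.6, and TFEB KO had both the lowest control sum and the highest Torin sum.

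**Figure D3:**
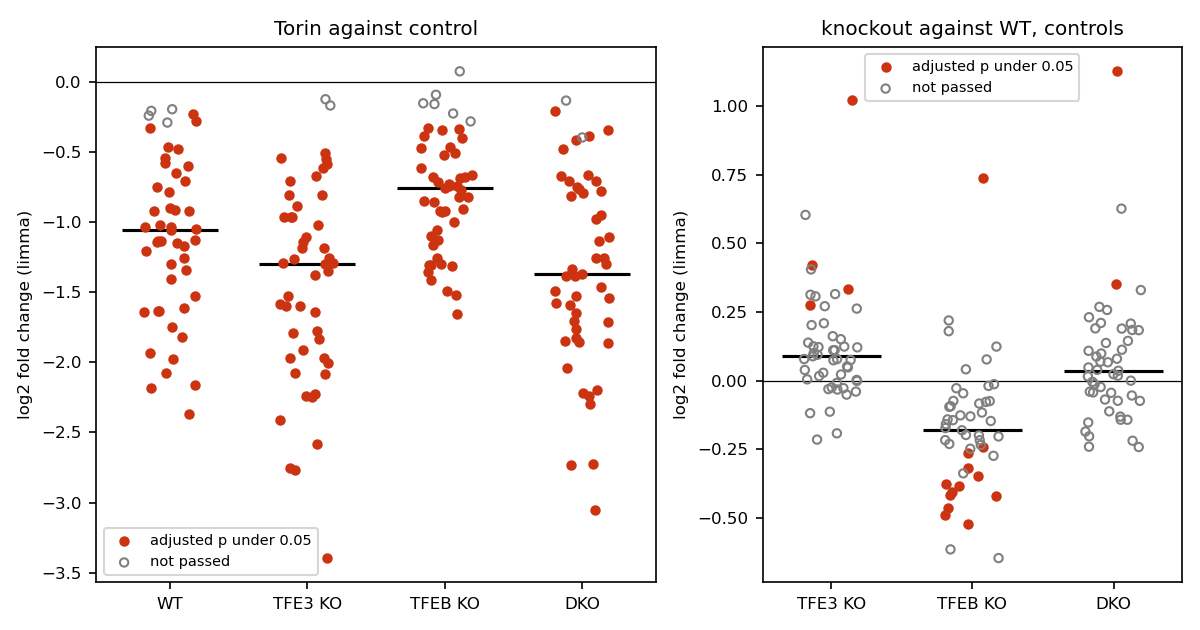
Log2 fold change (limma) of each of the 49 genes for Torin against the control of the same genotype (left) and for each knockout control against WT control (right); filled red points have an adjusted p under 0.05, open points do not, and the bar is the median over the 49 genes. The Torin medians were -1.06 in WT, -1.30 in TFE3 KO, -0.76 in TFEB KO and -1.37 in DKO, and the knockout medians were 0.09, -0.18 and 0.04.

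Interaction terms tested these differences gene by gene. The response of TFE3 KO was compared with that of TFEB KO, a contrast that uses no WT library. It was more negative in TFE3 KO for 30 of 49 members, against 4.58% of all genes tested, and for 9 of them by at least 2-fold, against 0.690% of all genes. No member went the other way, against 405 of 13052 genes, and the median difference was -0.58 over the members and 0.02 over all genes. FAM111B differed the most. It was 33.6, 41.7 and 43.5 in TFE3 KO control and 4.03, 3.56 and 1.46 with Torin, and 28.9, 34.9 and 33 in TFEB KO control and 8.1, 12.3 and 12.6 with Torin (log2 difference of responses -1.91 ± 0.318, SE, adjusted p = 6.7e-05). GINS1, a subunit of the GINS complex, was 66.2, 69 and 67.5 and 12.9, 10.9 and 17.5 in TFE3 KO and 74, 87 and 78.4 and 51, 52.3 and 46.8 in TFEB KO (difference -1.58 ± 0.179, adjusted p = 1.8e-08). For GINS1 the TFE3 KO libraries lay below the TFEB KO libraries both in control and, by a wider margin, with Torin. CLSPN was 273, 259 and 238 and 36.7, 39 and 36.2 in TFE3 KO and 165, 158 and 178 and 64.5, 63.9 and 71.7 in TFEB KO (difference -1.44 ± 0.147, adjusted p = 1.8e-09), and here the TFE3 KO libraries were the higher in control and the lower with Torin. MCM10, GINS4, ORC6, RRM2, UHRF1 and MCM4 also differed by at least 2-fold, with differences from -1.25 (MCM10) to -1.05 (MCM4). MCM7 (-0.37) and RPA1 (-0.38) were the members nearest to 0 that passed. The call for MCM7 was lost when any 1 of 5 single libraries was left out and that for RPA1 when any 1 of 10 of the 12 was, with the lowest size without TFEB KO control replicate 3 (-0.27 and -0.33). POLD1 was at -0.02 (adjusted p = 0.98), and its sign changed with the library left out. Of the 30 calls 21 were kept whichever single library was left out; that for UHRF1 was lost without any 1 of 7 of the 12 (-0.91 to -1.25 over all 12).

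Against WT, whose Torin group has n = 2, fewer members differed. In TFE3 KO the response was more negative for 7 members, against 0.575% of all genes tested: FAM111B (-1.42), MCM10 (-0.84), MCM4 (-0.83), ORC6 (-0.78), CLSPN (-0.67), MCM3 (-0.46) and RRM1 (-0.44), with adjusted p from 0.00095 (MCM4) to 0.045 (ORC6). In DKO it was more negative for MCM10 (-0.79), CLSPN (-0.65) and MCM4 (-0.62), 3 members against 0.192% of all genes. MCM10 was 19.2 and 25.8 in WT Torin, 15.1, 14.9 and 9.15 in TFE3 KO Torin and 16.3, 15.2 and 13.8 in DKO Torin, below WT in all 6 knockout libraries. MCM3, a helicase subunit, was 322, 304 and 320 in TFE3 KO control and 120, 121 and 120 with Torin, and RRM1 was 359, 317 and 314 and 144, 147 and 141. MCM4 was 214, 237 and 222 in DKO control and 67.1, 57.1 and 73.2 with Torin. Most of these calls were lost when single libraries were left out (the ranges are over every omission). Of the 7 in TFE3 KO, MCM4 was kept whichever of the 11 libraries was left out, whereas RRM1 was lost without any 1 of the 11 (-0.51 to -0.37), MCM3 without any 1 of 9 (-0.57 to -0.35), ORC6 of 8 (-0.56 at the smallest size), FAM111B of 5, CLSPN of 4 (-0.77 to -0.52) and MCM10 of 3. None of the 3 in DKO was kept throughout: MCM10 was lost without any 1 of 8 of 11 libraries (-0.59 at the smallest size), CLSPN of 8 (-0.80 to -0.50) and MCM4 of 7 (-0.70 to -0.53), and CLSPN and MCM4 were also lost in a fit of only the groups compared (adjusted p = 0.155 and 0.055). Without WT Torin replicate 2 the TFE3 KO difference for FAM111B was -0.94 (adjusted p = 0.313), and without WT Torin replicate 3 that for MCM10 was -0.63 (adjusted p = 0.239).

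In TFEB KO the response was less negative than in WT for 5 members, against 0.812% of all genes tested. RRM2 was 195, 200 and 218 in TFEB KO control and 77.4, 84.7 and 84.1 with Torin, against 47.6 and 44.6 in WT Torin (difference of responses 1.06 ± 0.125, SE, adjusted p = 5.8e-07). Its Torin libraries lay above those of every other genotype. GINS1 (0.95), CLSPN (0.77), TYMS (0.57) and DUT (0.49) were the others, with adjusted p from 0.0051 (GINS1) to 0.033 (TYMS). TYMS was 92.7, 105 and 107 in TFEB KO control and 64.8, 62.3 and 60.7 with Torin, and DUT was 217, 224 and 264 and 222, 196 and 244, the groups overlapping. RRM2 was kept whichever of the 11 libraries was left out, GINS1 and CLSPN were lost without WT Torin replicate 3 (0.73 in each), TYMS without any 1 of 5 libraries (0.49 to 0.62) and DUT without any 1 of 7 (0.41 to 0.57). The interactions with WT rest on 2 WT Torin libraries: with the identical column kept as WT Torin replicate 1 the counts were 2 in place of 7 for TFE3 KO, 0 in place of 5 for TFEB KO and 0 in place of 3 for DKO. For RRM2 in TFEB KO the difference was then 0.57 with an adjusted p of 0.585. In its number of genes with a read, given above, the identical column lay nearer to the WT HBSS libraries than to the WT Torin libraries. Without single libraries the counts ranged from 2 to 6, 1 to 6 and 0 to 3, and they moved by over 1.5 times without any 1 of 9 of 11 libraries for TFE3 KO, 5 of 11 for TFEB KO and 8 of 11 for DKO.

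**Figure D4:**
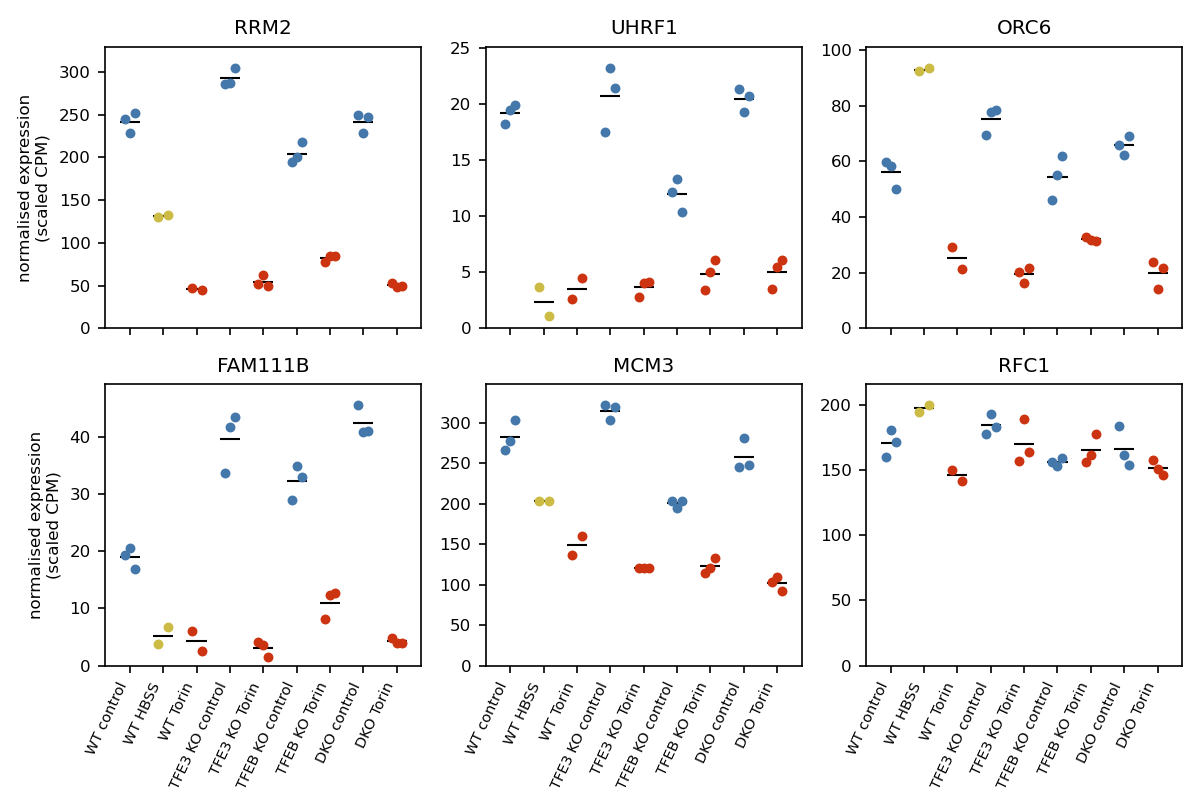
Normalised expression (scaled CPM, linear axes from 0) of 6 members in each of the 25 libraries; points are libraries, bars are group means, and blue, yellow and red stand for control, HBSS and Torin. RRM2 with Torin lay at 77.4 to 84.7 in TFEB KO and at 44.6 to 62.1 in the other genotypes, ORC6 was above control in HBSS and below it in Torin, FAM111B was higher in all 9 knockout control libraries than in WT control, and RFC1 moved little.

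Without treatment, 4 of the 49 members differed from WT in TFE3 KO, 2 in DKO and 13 in TFEB KO. Of the 13052 genes tested, 1228, 1713 and 1911 differed in the same order. These comparisons share the WT control libraries. In TFE3 KO control cells 4 members were higher, against 3.57% of all genes tested, and 0 were lower, against 762 of 13052 genes. The 4 members were FAM111B, ORC6 (0.42), DNMT1 (0.33) and RRM2 (0.27). FAM111B was 19.4, 20.6 and 16.8 in WT control and 33.6, 41.7 and 43.5 in TFE3 KO control (2.03 times WT, adjusted p = 0.0016). In DKO control cells 2 members were higher, against 5.64% of all genes, and 0 were lower, against 977 of 13052 genes. The 2 members were FAM111B, at 45.5, 40.8 and 41 (2.19 times WT, adjusted p = 0.00038), and DUT, at 349, 341 and 390 against 304, 266 and 275 in WT control (adjusted p = 0.0013). The FAM111B and DUT calls in DKO and that of FAM111B in TFE3 KO were kept whichever single library was left out, whereas in TFE3 KO ORC6 was lost without any 1 of the 6 libraries (0.35 to 0.48), RRM2 without any 1 of 4 (0.23 to 0.31) and DNMT1 without any 1 of 3 (0.21 to 0.43). The count in TFE3 KO was 1, 1 and 2 without TFE3 KO control replicate 1, 2 and 3.

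TFEB KO control cells moved the other way. In these 12 members were lower than in WT control, against 7.18% of all genes tested, and 1 was higher, against 7.46%; the median log2 fold change was -0.18 over the members and 0.00 over all genes. GMNN was 117, 108 and 113 in WT control and 66.9, 83.8 and 85 in TFEB KO control (0.696 of WT, adjusted p = 0.00076). MCM3 was 266, 278 and 303 and 203, 195 and 204 (0.713 of WT, adjusted p = 1.5e-05), and TYMS 155, 135 and 131 and 92.7, 105 and 107 (0.725 of WT, adjusted p = 0.00050). In each the groups did not overlap, as was the case for 25 of the 49 members and 3676 of the 13052 genes tested. The others that fell were CDT1, RPA3, PCNA, CDC45, DNMT1, CLSPN, POLD2, DUT and RRM2, with log2 fold changes from -0.42 (CDT1) to -0.24 (RRM2). UHRF1 had the lowest value, 12.1, 13.3 and 10.4 against 18.2, 19.4 and 19.9 in WT control (-0.65 on the log2 scale), with an adjusted p of 0.052; it passed with a minimum value of 5 (adjusted p = 0.048), in edgeR on recovered reads (adjusted p = 0.015), with the replicate block (adjusted p = 0.049) and in a fit of only the groups compared (adjusted p = 0.010). FAM111B was the member that was higher, at 28.9, 34.9 and 33 (log2 fold change 0.74, adjusted p = 0.022), a call lost without WT control replicate 3 (0.66) or TFEB KO control replicate 2 (0.68) or 3 (0.72). Of the 13 calls 6 (GMNN, MCM3, TYMS, CDT1, DNMT1 and POLD2) were kept whichever single library was left out. The 13 calls became 8 without WT control replicate 3 or TFEB KO control replicate 1 or 2.

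The untreated single knockouts were also compared with each other. Of the 49 members 27 were higher in TFE3 KO control than in TFEB KO control, against 14.3% of all genes tested, and 0 were lower, against 2036 of 13052 genes. The median difference was 0.28 over the members and 0.00 over all genes. All 5 genes of nucleotide supply and both genes of Okazaki fragment maturation were among the 27. Other roles held fewer: 2 of the 6 MCM2-7 subunits and 1 of the 6 genes of helicase activation passed. Over those 6 helicase activation genes the median difference was -0.02, with 3 of the 6 below 0. Of the 27 calls 13 were kept whichever single library was left out, and RPA1 and TK1 were lost without any 1 of 5 of the 6 and RRM1 without any 1 of 4. UHRF1 was 17.5, 23.2 and 21.4 in TFE3 KO and 12.1, 13.3 and 10.4 in TFEB KO (log2 difference 0.74 ± 0.232, SE, adjusted p = 0.012), a call lost without TFEB KO control replicate 3 or TFE3 KO control replicate 2 (0.66 in each). DNMT1 was 627, 648 and 548 and 371, 380 and 359 (difference 0.71 ± 0.0915, adjusted p = 1.4e-07), MCM3 was 322, 304 and 320 and 203, 195 and 204 (difference 0.65 ± 0.0787, adjusted p = 7.0e-09), and RRM2 was 286, 287 and 305 and 195, 200 and 218 (difference 0.52 ± 0.0831, adjusted p = 3.3e-06). No library of one clone overlapped the other for these 4 genes, as was the case for 36 of the 49 members and 5583 of the 13052 genes tested. GINS1 had the lowest difference of the 49 (-0.23) and did not pass (adjusted p = 0.17).

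**Figure D5:**
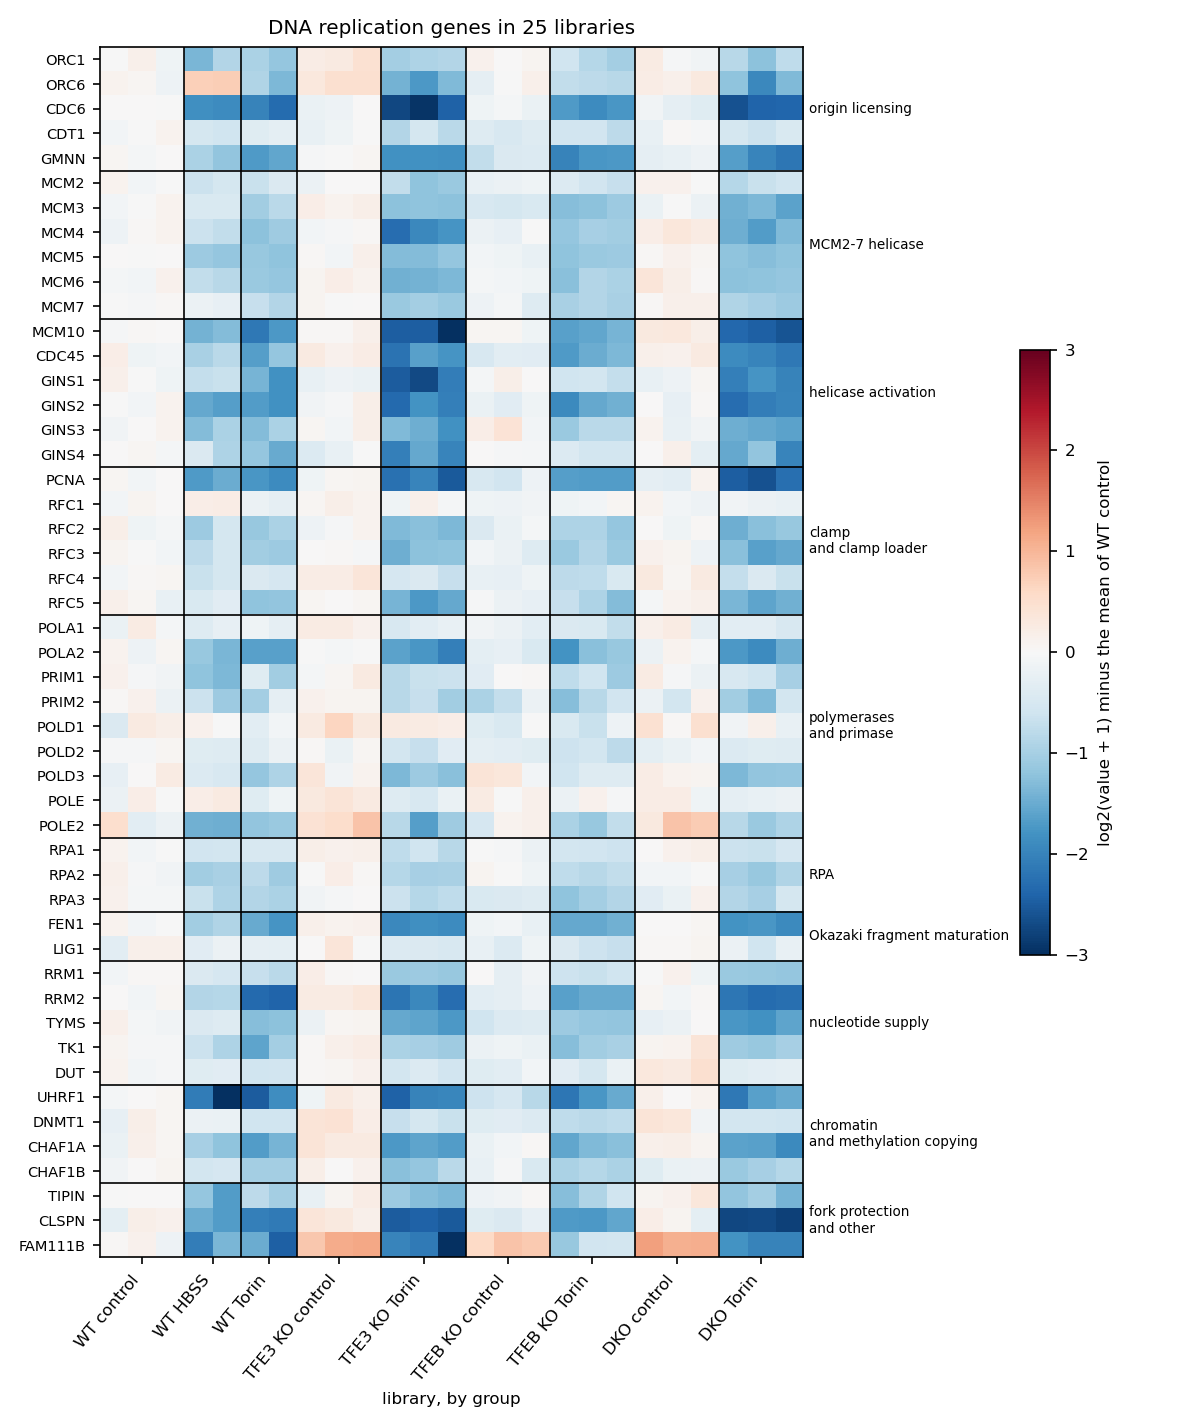
Each row is 1 of the 49 genes, ordered by role, and each column 1 of the 25 libraries, ordered by group; colour is log2(value + 1) minus the mean of the 3 WT control libraries, blue below and red above, with the scale capped at -3 and 3. Torin columns are blue in nearly every row, HBSS columns are blue except for ORC6, RFC1, POLE and POLD1, and FAM111B is red in the knockout controls.

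A further 46 replication genes that are not members (16 of licensing and origin firing, 18 of the fork and Okazaki fragments, 6 of nucleotide supply and 6 of chromatin) were examined beside them. Under Torin 28 of 46 fell and 1 rose in WT (23.4% and 20.5% of all genes tested), 33 fell and 1 rose in TFE3 KO (26.0% and 25.4%), 24 fell and 2 rose in TFEB KO (21.0% and 17.4%), and 31 fell and 2 rose in DKO (26.2% and 25.4%). In HBSS 23 fell and 1 rose (24.7% and 23.6% of all genes). DSCC1, a subunit of an alternative clamp loader, fell from 38.6, 33.6 and 31.4 to 11 and 14 in HBSS and 8.91 and 12.1 in Torin. DBF4, the activator of the CDC7 kinase that fires origins, was 56, 55.6 and 44.9 in control, 78.7 and 80.8 in HBSS and 22.5 and 19.9 in Torin, so that like ORC6 it was above control in one treatment and below it in the other (log2 fold changes 0.61 and -1.25). Its HBSS call was lost with the identical column kept as WT Torin replicate 1 only (adjusted p = 0.198) or in both groups (adjusted p = 0.0866). POLD4, the small subunit of polymerase delta, rose with Torin from 20.5, 18.2 and 18 to 30.7 and 34.8 (adjusted p = 2.8e-05) and was 18.2 and 17 in HBSS (adjusted p = 0.61).

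Genes of the later cell cycle did not follow the replication genes in HBSS. Of 16 G2/M genes, which act in mitotic entry and spindle function, 12 rose in HBSS and 0 fell (23.6% and 24.7% of all genes tested), with a median log2 fold change of 0.60, and their summed level was 6217 ± 62.2 (SD, n = 2) against 3558 ± 262 (SD, n = 3) in WT control. Under Torin in WT 4 rose and 7 fell (20.5% and 23.4% of all genes), with a median of -0.23, although the sum was 4203 ± 123 (SD, n = 2), 118% of control. The sum gives most weight to highly expressed genes. Among these TOP2A was 844, 1130 and 1070 in WT control and 1680 and 1650 with Torin. CENPF was 257, 460 and 421 in WT control and 731 and 665 with Torin. In the knockouts with Torin 2 rose and 10 fell in TFE3 KO (25.4% and 26.0% of all genes), 2 rose and 6 fell in TFEB KO (17.4% and 21.0%), and 1 rose and 12 fell in DKO (25.4% and 26.2%). The summed melanocyte markers also moved with treatment, to 228% of WT control in HBSS and 129% in Torin, and their part in the values of the replication genes was not tested. The markers did not move alike. PMEL was 2330, 2360 and 2360 in WT control and 3540 and 3740 with Torin, but TYR was 198, 171 and 194 and 134 and 132. DCT was 704, 759 and 721 in WT control, 4030 and 4050 in HBSS and 693 and 682 with Torin.

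Some members overlap other genes or have copies. By GENCODE version 44 on hg38, the last 1000 bases of 5 members (CHAF1A, GINS2, RFC4, RFC5 and TYMS) overlap a measured gene on the opposite strand. Those of FEN1 and PRIM1 overlap 1 on the same strand. Genes lying wholly beyond the 3′ end were not searched. In addition 12 members, among them DUT, PCNA, RRM2 and RPA2, have named pseudogenes, none of which was among the measured genes. How reads shared between such copies were assigned is not given in the sources used here, so the values of these members are uncertain to that extent.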

How the data were processed

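3′ end libraries (QuantSeq Forward) were made for 27 samples. Per the labels and the study's methods, the authors trimmed reads (trim_galore with cutadapt 2.10, FastQC 0.11.9), mapped them to hg38 with STAR 2.7.8a and normalised gene counts with edgeR. The deposited signal per gene, called normalised expression here, is CPM of each gene after a further scaling of each library; the counter, the scaling method and gene filter are not given in the sources used here. Every library's values (100%, tolerance 0.02) were whole multiples of 1 read, so reads were recovered for an edgeR test as an alternative. Levels are not divided by length because each read stands for 1 transcript end.

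A gene was tested where 3 or more libraries reached a value of 1. The 25 libraries retained were fitted together as log2(value + 1) with limma 3.58.1 (trend, robust; R 4.3.3; edgeR 4.0.16 for the alternative). p-values are 2-sided, Benjamini-Hochberg adjusted over all 13052 genes within a comparison; "passed", "rose" and "fell" mean an adjusted p under 0.05. Folds are on the log2(value + 1) scale and understate changes of low genes. The sources do not say that replicates were separate cultures, so p-values measure only the spread between these libraries, which may be technical; floors and read numbers cover counting error only. Scripts were tested on simulated data. Python 3.11.15, pandas 2.3.3 and matplotlib 3.10.9 were used for summaries and plots.

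The members, gene lists, tests and alternatives were chosen with earlier results of these data known. Libraries are listed for the members with the lowest and highest Torin change in each role, the lowest and highest in every other comparison, and members passing an interaction (all if at most 5, otherwise the 2 lowest and 2 highest), and for the lowest and highest of the other replication genes; any member could be named beyond these. Promoters on chromosome 8 were left out.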

Additional observations from a re-analysis of the deposited data

Results flagged for a closer look

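The interaction tests gave 16 results, listed by the naming rule, in which the Torin response of a member differed between genotypes at an adjusted p under 0.05 (limma, log2 scale). TFE3 KO against WT gave FAM111B (-1.42) and MCM10 (-0.84) as the lowest and MCM3 (-0.46) and RRM1 (-0.44) as the highest of the 7 members that passed. All were more negative in the knockout. When each of the 11 libraries was left out in turn, these 4 calls were lost 5, 3, 9 and 11 times. MCM4 (-0.83), also among the 7, was the 1 call kept whichever library was left out. TFEB KO against WT gave RRM2 (1.06), GINS1 (0.95), CLSPN (0.77), TYMS (0.57) and DUT (0.49), all less negative in the knockout; these calls were lost 0, 1, 1, 5 and 7 times. DKO against WT gave MCM10 (-0.79), CLSPN (-0.65) and MCM4 (-0.62), lost 8, 8 and 7 times. TFE3 KO against TFEB KO, which uses no WT library, gave FAM111B (-1.91) and GINS1 (-1.58) as the lowest and RPA1 (-0.38) and MCM7 (-0.37) as the highest of the 30 members that passed; of 12 libraries left out in turn, 0 and 0 of these ended the calls of the first pair and 10 and 5 those of the second. Each knockout is 1 clone, so a difference between genotypes cannot be told apart from a difference between clones. Groups held 2 or 3 libraries, so single outlying libraries were not tested; those that stood apart from their group are named with the depths above.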

How the results depend on the processing

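The 14 counts of members that passed were recomputed under 217 alternatives, and 179 of these stayed within 1.5 times the reported count. The counts for HBSS and for Torin in each genotype did so throughout; without single libraries they were 40 to 45 for HBSS, 41 to 45 for Torin in WT, 47 to 48 in TFE3 KO, 40 to 43 in TFEB KO and 45 to 46 in DKO. With the identical column kept as WT Torin replicate 1, HBSS against Torin gave 7 in place of 26 and the interactions with WT gave 2, 0 and 0 for TFE3 KO, TFEB KO and DKO in place of 7, 5 and 3; with it kept in both groups the values were 9, 4, 0 and 1. edgeR gave 4 in place of 2 for DKO against WT without treatment, and a fit of only the groups compared gave 1 in place of 3 for the DKO interaction. Without single libraries the counts were 1 to 5 for TFE3 KO and 8 to 12 for TFEB KO against WT without treatment, and 2 to 6, 1 to 6 and 0 to 3 for the interactions of TFE3 KO, TFEB KO and DKO with WT. POLD1 in the interaction of TFE3 KO with TFEB KO ranged from -0.15 to 0.12 on the log2 scale and changed sign 5 times; it passed in none. Of the single-gene values, 887 kept their side of the threshold and direction, 132 lost the call and 7 gained it. The cause of these changes was not tested. With the replicate number as a block (replicate block), the counts were 45 for HBSS, 45 for Torin in WT, 47 in TFE3 KO, 43 in TFEB KO and 47 in DKO, 14 for TFEB KO and 3 for DKO without treatment, and otherwise as reported; same-numbered libraries correlated at -0.19 to 0.14, so the numbers were not taken as pairs. Low expression limits UHRF1, FAM111B and POLE2 most, at 5 to 19 reads in the group with the lowest mean of each.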

Other observations

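Of the 16 G2/M genes, 10 were higher in DKO control than in WT control (limma, adjusted p under 0.05), against 5.64% of all genes tested. None (0) were lower, against 977 of 13052 genes. In TFE3 KO 2 were higher, against 3.57% of all genes, and in TFEB KO 1 was, against 7.46%. In HBSS the largest rises among the 16 were in the kinetochore gene CENPF (log2 fold change 1.25, adjusted p = 0.00041), the mitotic kinesin gene KIF20A (1.23, adjusted p = 4.4e-10) and the topoisomerase gene TOP2A (1.06, adjusted p = 9.8e-07).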
